A study of Mus musculus with 82 samples.

Results

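The 10 genes described here encode proteins of the platelet surface and of platelet granules: Vwf, Itga2b, Itgb3, Gp1ba, Gp1bb, Gp9, Gp5, Clec1b, Pf4 and Ppbp. They were taken by symbol from gene count tables that hold 55376 genes, and all 10 were present in each of the 30 RNA-seq libraries. The libraries came from C57BL/6J male mice and fall into 11 groups in 4 experiments. The age experiment compared bone marrow hematopoietic stem cells (HSCs, sorted as Lin- Sca-1+ c-kit+ CD34- Flk2- CD150+) of young mice aged 3 to 4 months (YHSCs, 4 libraries, each from pooled mice) with those of old mice aged 24 to 26 months (OHSCs, 8 libraries from individual mice). In the culture experiment, OHSCs received a lentivirus carrying a control shRNA or shRNA1 or shRNA2, both directed at a short variant of Btaf1 (a TATA box-binding protein-associated factor), and were grown for 3.5 days with thrombopoietin and stem cell factor, with 2 libraries per shRNA. In the transplant experiment, OHSCs transduced with the same 3 viruses were carried for more than 4 months in irradiated CD45.1 recipients. The donor GFP+ cells were sorted again as HSCs by a different gate (Lin- Sca-1+ c-kit+ CD48- CD150+), with 2 libraries per shRNA, each from pooled recipients. All 3 shRNA groups of both experiments therefore started from old cells, so none holds a young control. The progenitor experiment held 2 libraries each of common myeloid progenitors (CMPs), granulocyte-macrophage progenitors (GMPs) and megakaryocyte-erythroid progenitors (MEPs) from young mice. ATAC-seq, which counts transposase cuts in accessible chromatin, was read from 4 YHSC and 4 OHSC libraries, and ChIP-seq signal from 2 YHSC libraries for each of 3 histone marks and, for the acetylation mark H3K27ac, from 2 OHSC libraries as well.

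Platelets are shed by megakaryocytes. VWF, a large adhesive protein made by megakaryocytes and endothelial cells, tethers platelets to injured vessel wall through the GPIb-IX-V complex, whose subunits are the products of Gp1ba, Gp1bb, Gp9 and Gp5. Integrin αIIbβ3 (Itga2b and Itgb3) then binds fibrinogen and links platelets to each other, CLEC-2 (Clec1b) is a podoplanin receptor, and the chemokines PF4 and PPBP are stored in alpha granules. Vwf and Itga2b are also transcribed in a fraction of HSCs that is biased towards platelet production, and GATA, ETS and RUNX factors are known regulators of megakaryocyte genes.

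The sequences that the chromatin results below turn on are printed here in mm10 (RefSeq GRCm38.p6), 5′ to 3′ on the strand given. Capitals mark matches on either strand to GATA-type (AGATAA or AGATAG or TGATAA or TGATAG), ETS-type (AGGAAG or CGGAAG) and RUNX-type (TGTGGT or TGCGGT) letters. The first 4 are the 250 bases before the start of Gp5, Gp1ba, Itga2b and Pf4, chosen because these promoters differ in their matches while the genes differ in their levels. The other 3 are 300 base windows at the centre of intronic regions of Vwf and Itgb3 where accessibility or histone H3 lysine 27 acetylation (H3K27ac) was lower or higher in OHSCs. Distances are from the RefSeq start of the gene.
Gp5 promoter, chr16:30310782-30311031, minus strand: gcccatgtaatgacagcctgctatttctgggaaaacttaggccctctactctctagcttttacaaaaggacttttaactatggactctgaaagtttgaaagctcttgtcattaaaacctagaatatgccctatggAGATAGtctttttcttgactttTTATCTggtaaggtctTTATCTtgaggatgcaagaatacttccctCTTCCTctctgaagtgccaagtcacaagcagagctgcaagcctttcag
Gp1ba promoter, chr11:70638872-70639121, plus strand: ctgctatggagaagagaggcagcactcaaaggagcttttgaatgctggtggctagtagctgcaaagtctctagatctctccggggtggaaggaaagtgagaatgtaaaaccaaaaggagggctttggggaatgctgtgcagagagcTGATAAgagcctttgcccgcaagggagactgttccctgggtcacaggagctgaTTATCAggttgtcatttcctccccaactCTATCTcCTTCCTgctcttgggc
Itga2b promoter, chr11:102469884-102470133, minus strand: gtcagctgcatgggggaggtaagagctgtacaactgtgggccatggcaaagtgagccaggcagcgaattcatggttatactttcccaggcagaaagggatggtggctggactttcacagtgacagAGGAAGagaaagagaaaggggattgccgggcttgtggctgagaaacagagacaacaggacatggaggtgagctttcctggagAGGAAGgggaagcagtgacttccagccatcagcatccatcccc
Pf4 promoter, chr5:90772185-90772434, plus strand: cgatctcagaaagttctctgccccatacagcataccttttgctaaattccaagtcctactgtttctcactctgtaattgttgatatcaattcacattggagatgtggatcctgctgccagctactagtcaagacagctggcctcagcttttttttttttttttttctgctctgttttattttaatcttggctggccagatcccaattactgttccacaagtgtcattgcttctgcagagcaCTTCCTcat
Vwf intron 6, 20.2 kb inside the gene, chr6:125572962-125573261, plus strand: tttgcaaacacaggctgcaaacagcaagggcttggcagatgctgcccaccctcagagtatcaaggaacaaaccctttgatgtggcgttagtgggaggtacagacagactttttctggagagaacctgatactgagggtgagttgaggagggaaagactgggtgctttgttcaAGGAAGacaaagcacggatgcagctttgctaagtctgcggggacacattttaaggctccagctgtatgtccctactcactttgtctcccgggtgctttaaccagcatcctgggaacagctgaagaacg
Vwf intron 6, 31 kb inside the gene, chr6:125583825-125584124, plus strand: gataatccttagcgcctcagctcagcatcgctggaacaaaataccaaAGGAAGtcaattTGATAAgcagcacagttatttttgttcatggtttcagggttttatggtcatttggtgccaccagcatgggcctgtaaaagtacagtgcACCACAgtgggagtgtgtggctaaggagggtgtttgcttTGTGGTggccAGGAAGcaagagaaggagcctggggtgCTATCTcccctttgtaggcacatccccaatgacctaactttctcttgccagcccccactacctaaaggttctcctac
Itgb3 intron 10, 48.5 kb inside the gene, chr11:104656387-104656686, plus strand: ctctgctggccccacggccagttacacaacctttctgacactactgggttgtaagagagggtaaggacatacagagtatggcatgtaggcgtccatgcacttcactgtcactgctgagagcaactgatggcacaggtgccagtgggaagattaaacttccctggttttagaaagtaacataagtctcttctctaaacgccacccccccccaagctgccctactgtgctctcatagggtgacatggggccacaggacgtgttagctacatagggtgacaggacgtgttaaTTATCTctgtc

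Gp5 and Gp1ba each held 3 GATA matches and 1 ETS match in these 250 bases. Itga2b held 2 ETS matches and Pf4 held 1, next to its start, and neither held a GATA match. A promoter entry was found for 8 of the 10 genes, the exceptions being Vwf and Itgb3. Of those 8, 4 held a GATA match (26.5% of 32851 RefSeq promoters did), 6 held an ETS match (39.2% did) and 1, Gp9, held a RUNX match (18.6% did). The Vwf window at 31 kb held 2 matches of each of the 3 types, the Vwf window at 20.2 kb held 1 ETS match and the Itgb3 window held 1 GATA match. Among 127692 windows of this length centred on accessible regions, 37.2% held a GATA, 54.8% an ETS and 32.2% a RUNX match. These matches describe letters only.

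Gene-assigned reads per library ranged from 20475764 to 24654742 in the age experiment, from 37292602 to 42737054 in culture, from 37601706 to 42142361 after transplant and from 33177394 to 36510850 in progenitors. Levels are given as CPM, the gene's count scaled to the library's total of assigned reads, with totals adjusted by the trimmed mean of M-values (TMM) within each experiment, so levels set side by side across experiments were normalized separately. Cell identity was checked against marker genes. The summed level of 10 erythroid genes was 14822 CPM in MEPs, 641 in CMPs and 262 in GMPs, and that of 8 myeloid genes was 62069 CPM in GMPs, 16573 in CMPs and 42.1 in MEPs. The summed level of 9 HSC genes was 3641 to 3835 CPM in YHSCs and 3536 to 4140 in OHSCs.

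The platelet genes spanned a wide range within YHSCs. Levels per kilobase used the merged exons of all annotated transcripts, 16064 bases from 11 transcripts for Vwf and 5103 bases from 4 for Clec1b. The length of a single transcript would give other values, so the order below holds for merged exons only. Per kilobase of exon, Pf4 was highest at 37.97 CPM, followed by Gp9 at 31.1, Vwf at 20.6, Itga2b at 18.7 and Itgb3 at 15.0. Gp5 stood at 8.81, Gp1ba at 4.06, Ppbp at 3.53 and Clec1b at 1.03. Gp1bb was close to zero, at 0.0265 CPM per kilobase. In OHSCs the order changed, with Itgb3 first at 71.8 CPM per kilobase, then Vwf at 47.5, Itga2b at 44.1, Gp9 at 40.8 and Pf4 at 37.3. The plain CPM of the 10 genes summed to 614 (median of 4 YHSC libraries, 586 to 652) and to 1525 (median of 8 OHSC libraries, 1333 to 1750), with no overlap. Vwf alone made up 53.7% of that sum in YHSCs and 49.3% in OHSCs.

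The comparison of OHSCs with YHSCs asks which of these genes change with age in the stem cell itself. Transcripts of both integrin chains, of Vwf, of Clec1b and of the ligand-binding subunit gene Gp1ba rose in OHSCs, by 0.65 (Gp1ba) to 2.25 (Itgb3) on the log2 scale. The other detected subunits of the GPIb-IX-V complex were higher by less than 1.5-fold, Pf4 stood at 27.4 ± 5.41 CPM (SD, n = 4) in YHSCs and 26.9 ± 10.8 CPM (n = 8) in OHSCs, and Ppbp fell. Calls required a change of more than 1.5-fold and an adjusted p below 0.05 in edgeR's quasi-likelihood test, adjusted over 21522 genes. Of the 9 members tested, 5 rose and 1 fell, where 4.69% of all tested genes rose and 2.83% fell. In 6 members every old library was above every young one, where 8.32% of the genes tested were so. The median log2 change was 0.65 over the members and -0.01 over all genes. In bulk RNA of sorted cells, fewer cells of a type and less RNA per cell cannot be told apart. P-values measure only the spread between these libraries, which for the pooled young libraries may in part be technical.

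Vwf stood at 316, 320, 334 and 355 CPM in the 4 YHSC libraries and ran from 586 through a median of 774 to 934 CPM in the 8 OHSC libraries. Every old library was above every young one. The log2 change was 1.205 (SE 0.11, adjusted p = 5.11e-06, edgeR). Because endothelial cells also make VWF, a list of endothelial genes was read beside it. Of its 7 tested genes 3 rose (Kdr, Plvap and Cldn5), and its summed level was 357 to 385 CPM in YHSCs and 404 to 483 CPM in OHSCs. Its most abundant genes were Tie1, at 336 CPM in YHSCs and 321 in OHSCs, and Cldn5, which rose from 8.19 to 68.8 CPM (log2 change 3.07). The junctional gene Cdh5, on the same list and named after its values were seen, was at 0.463 ± 0.360 CPM (SD, n = 4) and 0.454 ± 0.183 CPM (n = 8). The part of endothelial RNA in the Vwf values was not tested.

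Itga2b encodes the αIIb chain, also known as CD41, which was not among the antigens of the HSC sort. It stood at 115, 98.8, 92.9 and 102 CPM in YHSCs and between 204 and 274 CPM in OHSCs, with a log2 change of 1.24 (SE 0.08, adjusted p = 2.71e-09, edgeR). Itgb3, its β3 partner, stood at 90.0, 76.2, 82.2 and 107 CPM in YHSCs and between 344 and 475 CPM in OHSCs. The groups did not overlap for either chain. Itgb3 showed the largest log2 change among the 9 tested members, 2.25 (SE 0.11, adjusted p = 2.12e-08, edgeR). The group means of the chains were 102 ± 9.15 CPM for Itga2b and 88.8 ± 13.3 CPM for Itgb3 in YHSCs (SD, n = 4), and 241 ± 23.5 and 424 ± 45.5 CPM in OHSCs (n = 8).

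Among the subunits of the VWF receptor, Gp1ba, which carries the VWF-binding site, stood at 10.1, 11.6, 12.3 and 10.2 CPM in YHSCs and from 14.5 to 21.3 CPM, median 17.3, in OHSCs. All 8 old libraries exceeded all 4 young ones, and the log2 change was 0.65 (SE 0.10, adjusted p = 1.42e-05, edgeR). Gp5, the outer subunit cleaved by thrombin, stood at 21.7, 17.4, 17.4 and 20.9 CPM in YHSCs and from 23.6 to 31.5 CPM in OHSCs, again without overlap. Its log2 change of 0.49 (SE 0.09, adjusted p = 1.35e-04, edgeR) was under the fold threshold. Gp9, needed for surface delivery of the complex, stood at 29.6, 25.5, 29.1 and 25.4 CPM in YHSCs and from 28.0 to 41.6 CPM in OHSCs, with overlapping groups and a log2 change of 0.39 (SE 0.09, adjusted p = 0.00307, edgeR). Gp1bb, the subunit disulfide-linked to GPIbα, had 0 to 2 reads per YHSC library and 1 to 12 reads per OHSC library and did not pass the filter on low counts. Its count is uncertain, because 1902 bases of its 2087 base span lie within the span of Sept5 and 1938 within that of Gm49601, both on the same strand.

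Clec1b, the CLEC-2 gene, rose without overlap. It stood at 5.03, 4.67, 5.76 and 5.61 CPM in YHSCs and from 9.24 to 15.1 CPM in OHSCs, a log2 change of 1.17 (SE 0.12, adjusted p = 1.16e-07, edgeR). Its last 474 bases overlap Clec9a on the same strand. The granule chemokine genes Ppbp and Pf4, neighbours on chromosome 5 with 2371 bases between them, had log2 changes below 0. Pf4 stood at 35.2, 26.9, 24.2 and 23.3 CPM in YHSCs and from 19.8 through a median of 22.3 to 50.3 CPM in OHSCs, with a log2 change of -0.03 (SE 0.28, adjusted p = 0.967, edgeR). Old replicates 3 and 8 were high, at 50.3 and 36.2 CPM, and the other 6 old libraries lay between 19.8 and 22.7 CPM. Ppbp stood at 4.73, 4.86, 2.49 and 3.22 CPM in YHSCs and from 1.25 to 4.15 CPM in OHSCs, with overlap and a log2 change of -0.83 (SE 0.29, adjusted p = 0.0484, edgeR). The Ppbp call was lost when young replicate 1, 2 or 4 or old replicate 1, 2, 5, 6, 7 or 8 was left out, with log2 changes between -0.90 and -0.70.

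**Figure D1:**
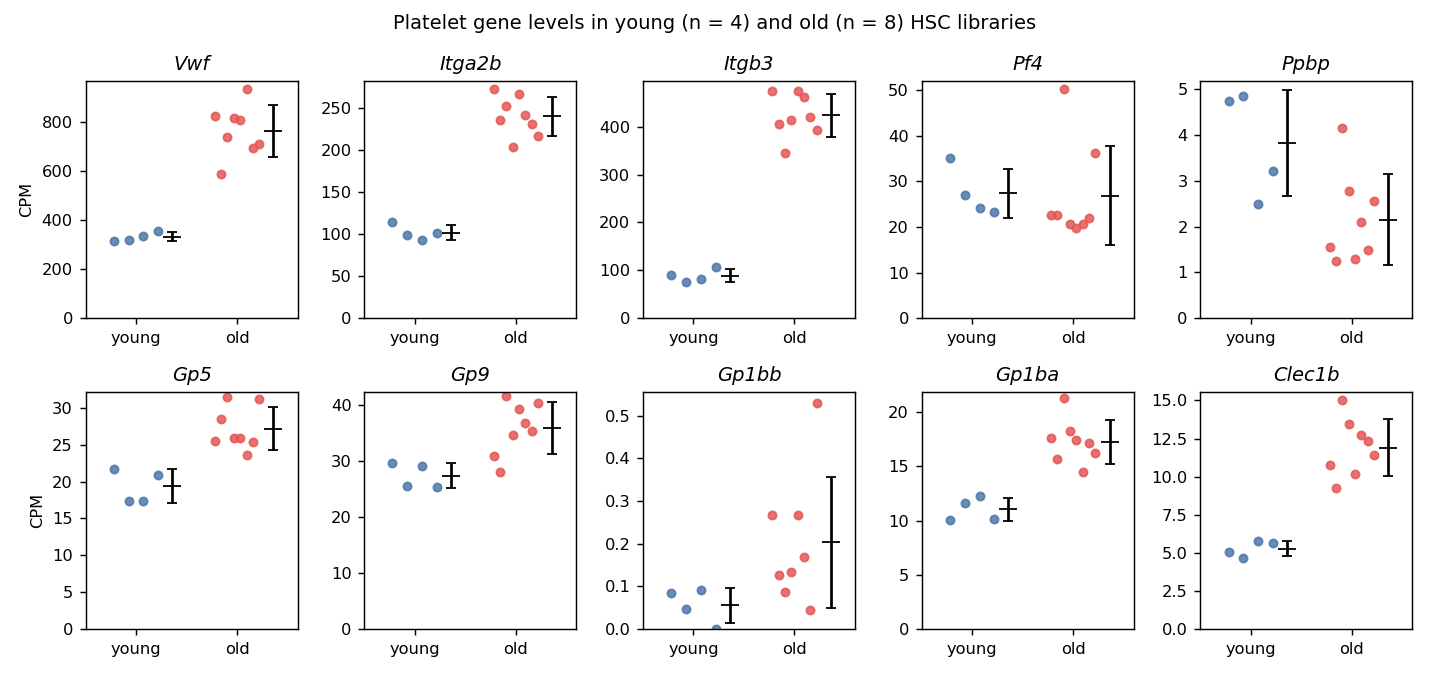
CPM of each platelet gene in every YHSC and OHSC library, with a coloured point per library and a black tick with its SD for each group mean. The old points lie wholly above the young points for Vwf, Itga2b, Itgb3, Gp5, Gp1ba and Clec1b, and the groups overlap for Gp9, Gp1bb, Pf4 and Ppbp.

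Other genes of platelet biology were read from 4 lists. Of 18 tested platelet receptors outside the members, 4 rose and 0 fell with age, where 4.69% of all genes rose and 2.83% fell. Selp, the granule membrane adhesion molecule P-selectin, had the largest change at 3.33 (SE 0.10, adjusted p = 2.76e-12, edgeR), from 51.2 ± 9.499 CPM (SD, n = 4) to 514 ± 23.7 CPM (n = 8). The thromboxane receptor gene Tbxa2r went from 25.0 to 44.7 CPM and the laminin-binding integrin gene Itga6 from 264 to 418 CPM. Ptger3, a prostaglandin receptor gene named after its values were seen, went from 77.4 to 118 CPM. Of 17 granule and secreted genes 3 rose, Clu (51.1 to 261 CPM), Pros1 (42.6 to 74.9 CPM) and Timp3 (42.2 to 70.4 CPM), and 1 fell, Thbs1 (4.16 to 2.65 CPM, with overlapping groups, named after its values were seen). Of 17 cytoskeleton and signalling genes 3 rose and 0 fell, namely Dnm3 (8.25 to 40.4 CPM), Plek (82.7 to 225 CPM) and Alox12 (3.89 to 7.70 CPM).

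Among transcription factors of the megakaryocyte lineage, Gata1 fell from 13.5 to 5.08 CPM (log2 change -1.41, adjusted p = 2.36e-04, edgeR). Median log2 changes were 0.18 for the receptors, 0.25 for the granule genes and 0.27 for the signalling genes. Among other lineages, 6 of 8 B cell genes fell (summed level 84.5 to 152 CPM in YHSCs and 38.1 to 45.5 CPM in OHSCs), and of 10 erythroid genes 1 rose and 5 fell (1528 to 1712 CPM and 1295 to 1667 CPM). Of 5 tested myeloid genes 1 rose, Prtn3 (125 to 313 CPM), and 1 fell, and the summed level of that list was 143 to 172 CPM in YHSCs and 304 to 361 CPM in OHSCs, without overlap. The part of these other lineages in the values of the platelet genes was not tested.

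Histone H3K27ac, a mark of active promoters and enhancers, was compared at the 17 peaks that the authors assigned to these genes. They belonged to 8 genes, with no peak for Ppbp or Gp1bb. The rule for a difference was a ratio of means above 1.5 with each of the 4 old to young library ratios on that side by at least 1.2, and it carries no p-value. Of the 17 peaks 6 met it as higher in OHSCs and 0 as lower, where 9.11% of all 39557 peaks were higher and 2.27% lower. With the libraries scaled to the same median signal, the counts over all peaks moved from 3602 higher and 898 lower to 2773 and 1437, and those at the platelet genes stayed at 6 and 0. The 6 peaks lay at Vwf, Itga2b, Itgb3 and Clec1b. Those at Vwf and Clec1b and the Itgb3 peak 48.5 kb inside the gene were called as peaks in OHSCs only. They entered the set through the libraries in which they are high, so a higher signal was the outcome open to them.

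At Itga2b, the peak 2.2 kb inside the gene (chr11:102467310-102468028) had a signal of 2.77 and 2.36 in the YHSC libraries and 4.55 and 4.89 in the OHSC libraries, a ratio of 1.84. The peak at its start (chr11:102469548-102470089), which covers most of the promoter printed above, went from 2.62 and 1.86 to 3.38 and 3.81, a ratio of 1.60. In every pairing the old library was higher. At Itgb3, the acetylated peak 48.5 kb inside the gene in intron 10 (chr11:104656190-104656882), whose centre is the window printed above, had 0.637 and 0.434 in YHSCs and 1.19 and 1.33 in OHSCs, the largest ratio of the 17 at 2.36. It was called as a peak in OHSCs only. Another in the same intron, at 39.1 kb (chr11:104646533-104647716), went from 1.1199 and 1.27 to 2.01 and 2.02, a ratio of 1.69. The peak at the Itgb3 start itself had a ratio of 1.04.

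At Vwf, 1 of 5 peaks met the rule, in intron 6 and 31.5 kb from the start (chr6:125583627-125585303), with 1.11 and 1.42 in YHSCs and 2.08 and 2.06 in OHSCs, a ratio of 1.64. Among the Vwf peaks, only that one was called in OHSCs alone. The Vwf peak at 20.3 kb had a ratio of 0.769, in the opposite direction and short of the rule, and the peak by the start had 1.40. The Clec1b peak, 2.8 kb into the gene in intron 1 (chr6:129399854-129400394), went from 1.39 and 1.09 to 2.49 and 1.77, a ratio of 1.72. It was also called in OHSCs only. The remaining genes had ratios of 1.01 at Pf4, 1.09 at Gp5, 1.30 at Gp1ba and 1.32 at Gp9. With 2 libraries per age, limma on log2 signal called 2 of the 6 higher peaks, those at 2.2 kb in Itga2b (adjusted p = 0.0391) and 48.5 kb in Itgb3 (adjusted p = 0.0430). Leaving out 1 library ended the call of the Itga2b start peak (1.37 without young replicate 2), the Vwf peak (1.46 without young replicate 1) and the Clec1b peak (1.43 without old replicate 1).

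**Figure D2:**
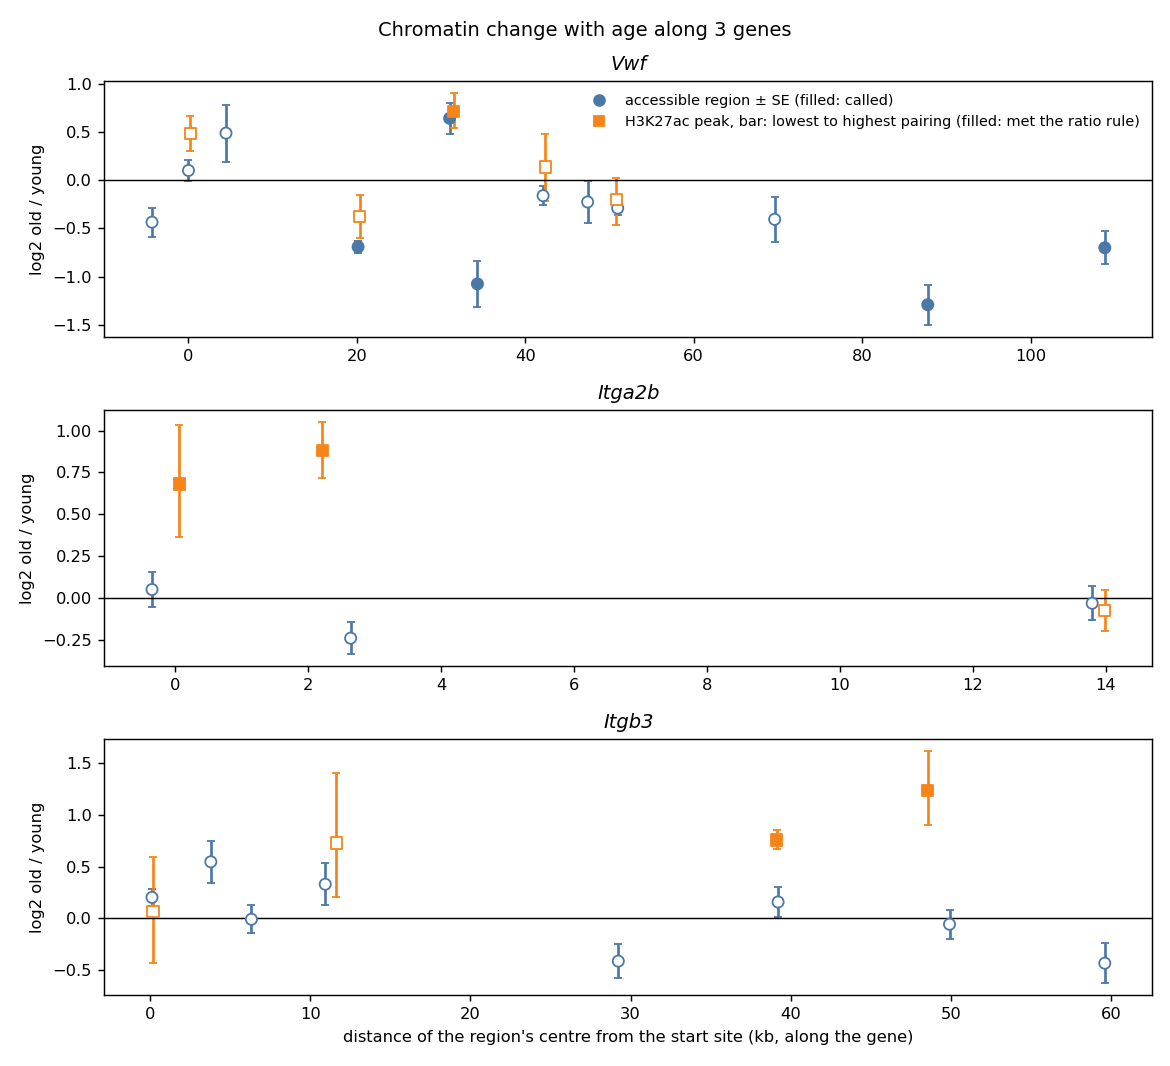
Log2 difference between OHSCs and YHSCs at accessible regions (circles, edgeR, bars are SE) and H3K27ac peaks (squares, ratio of means, bars span the lowest to the highest library pairing) along Vwf, Itga2b and Itgb3, by distance from the gene start in kb, filled where the thresholds were met. All 5 filled circles lie in Vwf, 4 of them below 0, and the filled squares lie above 0, in Vwf, Itga2b and Itgb3.

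Accessibility was compared at 42 regions in or within 5 kb of these genes, 36 of which passed a minimum of 1.5 CPM in 4 libraries. Of those 36, 1 rose and 4 fell in OHSCs at more than 1.5-fold and an adjusted p below 0.01 (edgeR), where 10.0% of the 89236 regions tested rose and 2.91% fell. All 5 lay in introns of Vwf, the longest of the genes, which held 12 of the tested regions. The region in intron 6, 20.2 kb from the start (chr6:125572388-125573834) was at 42.3, 42.7, 40.8 and 43.8 CPM in YHSCs and 27.03, 23.5, 28.4 and 26.2 CPM in OHSCs. The groups were far apart, and the log2 change was -0.69 (SE 0.06, adjusted p = 7.35e-14, edgeR). The region in the same intron, 31 kb from the start (chr6:125583500-125584448), which overlaps the acetylated peak that met the rule, was at 4.02, 2.61, 3.95 and 4.06 CPM in YHSCs and 5.23, 7.73, 4.36 and 5.86 CPM in OHSCs. Its log2 change was 0.64 (SE 0.16, adjusted p = 0.00152, edgeR), and the call was lost without young replicate 2 (0.53), when 3 regions were called in all, or without old replicate 6 (0.48).

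The other 3 Vwf regions were weaker and fell, from 2.38 to 1.13 CPM at 34.3 kb in intron 6, from 3.66 to 1.52 CPM at 87.8 kb in intron 27 and from 4.79 to 2.94 CPM at 108.8 kb in intron 38. The regions at 34.3 and 87.8 kb passed the minimum through the young libraries, in which they are high, so a fall was the outcome open to them, and the region at 34.3 kb was not tested without any of the young libraries. With no minimum, their log2 changes were -1.10 and -1.32. None of the 7 tested regions that cover a start site was called, with log2 changes from -0.34 at Gp1ba to 0.20 at Itgb3. The Gp1ba transcript was higher with age while its start region was lower in accessibility at an adjusted p of 9.75e-04 (edgeR), under the fold threshold. The Clec1b region 2.8 kb inside the gene, where acetylation was higher, was at 2.60 CPM in YHSCs and 3.86 CPM in OHSCs without overlap, with a log2 change of 0.56 (adjusted p = 0.0119, edgeR) that did not reach the threshold. The Pf4 start region was open at both ages, at 44.7 CPM in YHSCs and 46.1 CPM in OHSCs.

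In YHSCs, histone H3 lysine 4 trimethylation (H3K4me3), found at active starts, was present as 16 peaks at 8 of the genes, with none assigned to Ppbp or Clec1b. The Itgb3 start had the strongest at a mean signal of 13.1, followed by Gp5 at 12.2, Gp1bb at 8.96, Itga2b at 7.91 (13.9 kb inside the gene) and Vwf at 7.58 (50.8 kb inside the gene). The peaks at Pf4, Gp1ba and Gp9 were lower, at 2.70, 2.97 and 2.61, against a median of 5.37 over all 33199 peaks. H3K27me3, a mark of Polycomb repression, had 3 peaks, at Gp1bb (1.03), Gp5 (0.584) and Itga2b (0.498). The Gp1bb peak was stronger than 97.7% of all peaks of that mark. It is 44999 bases wide and also covers Sept5 and Gm49601. The H3K4me3 peak assigned to Gp1bb lies within the spans of both these genes as well, so neither peak is particular to Gp1bb. The peaks at Gp5 and Itga2b were centred downstream of the gene, 7.8 and 18.9 kb from the start, and that at Gp1bb 7.1 kb before the start.

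Knockdown was read first through Btaf1 itself. Gene counts add its variants together, so they check the short variant only in part. In culture Btaf1 was at 138 and 142 CPM with control shRNA, 109 and 118 with shRNA1 and 112 and 113 with shRNA2, a log2 change of -0.31 (SE 0.05, adjusted p = 0.00151, edgeR). In transplanted HSCs it was at 161 and 166 CPM with control, 131 and 139 with shRNA1 and 120 and 118 with shRNA2, with a log2 change of -0.37 (SE 0.08, adjusted p = 0.791, edgeR). All 4 knockdown libraries were below both control libraries in each experiment.

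The culture comparison asks how the platelet genes of old HSCs respond to the knockdown after 3.5 days. No member passed both thresholds against the mean of the 2 shRNAs, where 0.906% of 19763 genes did. At an adjusted p below 0.05 without the fold threshold (3.36% of all genes), Vwf was lower, and Itgb3 and Ppbp were higher. The median log2 change was 0.07 over the 9 tested members and 0.00 over all genes. Vwf was at 480 and 491 CPM with control, 382 and 395 with shRNA1 and 387 and 433 with shRNA2. All knockdown libraries were lower, with a log2 change of -0.28 (SE 0.05, adjusted p = 0.00398, edgeR). The summed endothelial genes were also lower without overlap, at 237 to 243 CPM with control and 214 to 221 CPM with knockdown. Most of that sum was Tie1, with means of 226 CPM with control, 203 with shRNA1 and 201 with shRNA2. Kdr, the next most abundant, went the other way, at 9.18, 10.7 and 10.8 CPM. The part of these genes in the Vwf values was not tested.

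The Vwf receptor subunits did not pass a threshold in culture. Gp5 was at 22.6 and 19.9 CPM with control, 19.1 and 18.7 with shRNA1 and 17.0 and 14.8 with shRNA2. All 4 knockdown libraries were below the controls, with a log2 change of -0.29 (adjusted p = 0.206, edgeR). Gp9 and Gp1ba overlapped between control and knockdown, at log2 changes of -0.18 and 0.06. Itgb3 was at 145 and 156 CPM with control, 184 and 183 with shRNA1 and 199 and 198 with shRNA2, all above the controls (log2 change 0.35, SE 0.05, adjusted p = 0.00121, edgeR).

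Itga2b differed between the shRNAs in culture. It was at 484 and 480 CPM with control, 578 and 566 with shRNA1 and 444 and 443 with shRNA2, so shRNA1 lay above and shRNA2 below the control. The log2 difference of shRNA2 from shRNA1 was -0.37 (SE 0.03, adjusted p = 1.18e-08, edgeR), under 1.5-fold, and the mean of both differed from control by 0.07 (adjusted p = 0.885, edgeR). The other 8 tested members had adjusted p of 0.127 or more between the shRNAs, and no member passed both thresholds, where 0.896% of all genes did. Beside this, the summed erythroid genes were at 717 to 720 CPM with control, 533 to 555 with shRNA1 and 708 to 730 with shRNA2, and the summed myeloid genes at 172 to 180, 197 to 199 and 245 to 255 CPM. Their part in the Itga2b values was not tested. Of the chemokines, Ppbp was at 5.29 and 6.16 CPM with control and 7.68 to 8.80 CPM in the 4 knockdown libraries (log2 change 0.53, SE 0.14, adjusted p = 0.0466, edgeR). Pf4 was at 277 and 301 CPM with control and 308 to 361 CPM with knockdown, a log2 change of 0.17 (adjusted p = 0.217, edgeR). Clec1b was near its floor, at 0.402 and 0.297 CPM with control and 0.373 to 1.10 CPM with knockdown, and its log2 change of 1.13 came with an SE of 0.51 (adjusted p = 0.298, edgeR).

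In the other platelet lists, 1 of 18 tested receptors rose in culture (Adra2a, the α2A-adrenergic receptor, log2 change 1.71) and 1 fell (Ptgir, the prostacyclin receptor, log2 change -1.59). Of 16 granule genes 1 rose (Serpine2, a protease inhibitor, log2 change 0.94), and none of 17 signalling genes or 12 transcription factors passed. Over all 19763 genes tested, 0.906% passed in either direction. These 3 genes were named after their values were seen.

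**Figure D3:**
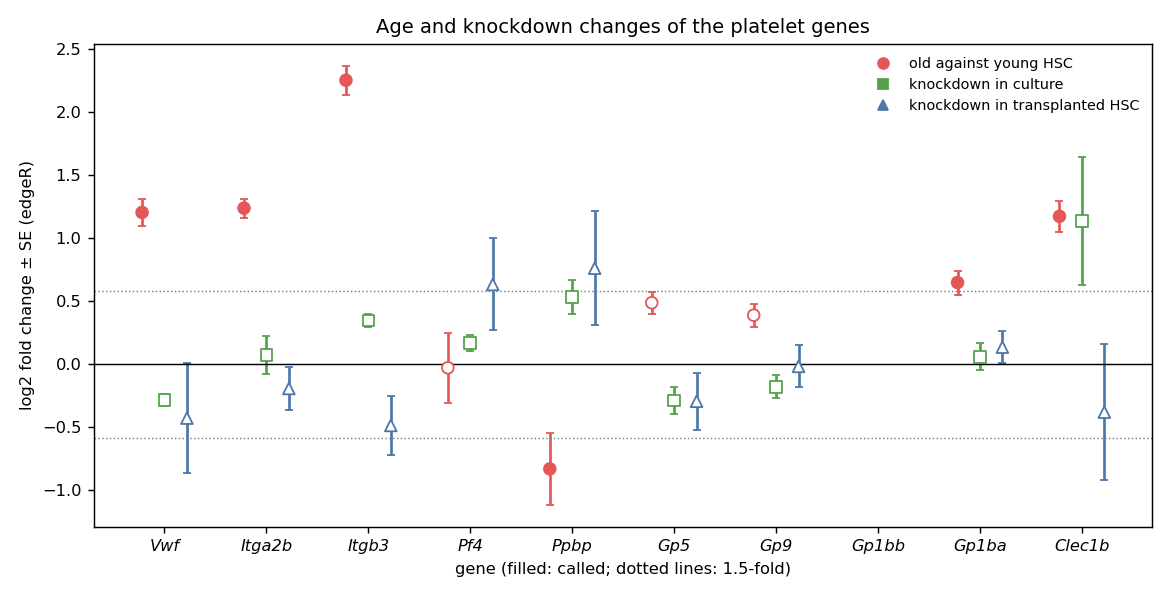
Log2 change with its SE for each platelet gene with age, with knockdown in culture and with knockdown in transplanted HSCs (edgeR), with filled points for genes past both thresholds. With age 5 genes rose and 1 fell, and no gene passed in either knockdown experiment.

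After transplant, no member passed the thresholds, and neither did any of the 20350 genes tested (0 called by edgeR, with 666 genes higher and 472 lower at an unadjusted p below 0.05, and 17 higher and 8 lower by DESeq2). None of the 10 platelet genes was apart between control and knockdown libraries, where 14.7% of the genes tested were, and none reached an unadjusted p below 0.05. The median log2 change was -0.19 over the members tested and 0.00 over all genes. Vwf was at 222 and 408 CPM with control, 162 and 381 with shRNA1 and 187 and 208 with shRNA2. The 2 controls spanned most of the range of the 6 libraries, and the log2 change of -0.43 had an SE of 0.44 (adjusted p = 0.959, edgeR). Itgb3 was at 146 and 127 CPM with control, 84.5 and 144 with shRNA1 and 84.8 and 78.2 with shRNA2, with a log2 change of -0.48 (SE 0.24, adjusted p = 0.882, edgeR).

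Pf4 was at 37.5 and 44.5 CPM with control, 60.8 and 32.7 with shRNA1 and 70.5 and 90.6 with shRNA2, a log2 change of 0.63 (SE 0.36, adjusted p = 0.928, edgeR). Ppbp was at 5.56 and 5.32 CPM with control, 9.86 and 3.21 with shRNA1 and 11.01 and 12.8 with shRNA2 (0.76, SE 0.45, adjusted p = 0.928, edgeR). For both chemokine genes replicate 2 of shRNA1 was the lowest library and the shRNA2 libraries were the highest. Gp5 was at 29.0 and 29.2 CPM with control, 17.4 and 18.5 with shRNA1 and 31.0 and 28.2 with shRNA2. The log2 difference of shRNA2 from shRNA1 was 0.72 (SE 0.12, adjusted p = 0.117, edgeR), and no member passed in that comparison, where 0.00983% of all genes did. The libraries also differed in the myeloid gene Mpo, at 1.18 to 36.03 CPM with control, 8.46 to 181 with shRNA1 and 0.658 to 2.72 with shRNA2. Prtn3, the most abundant myeloid gene, was at 182 to 231, 173 to 199 and 169 to 207 CPM in the same order. Of the most abundant erythroid genes, Hbb-bt was at 16.3 to 29.6, 14.4 to 67.8 and 48.6 to 58.0 CPM. Car2 was at 1264 to 1676, 890 to 1204 and 1421 to 1448 CPM. The part of these lineages in the platelet gene values was not tested.

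The knockdown effect in transplanted HSCs was set against that in culture by an interaction term. None of the members passed, where 0.210% of 21443 genes did. The Itgb3 effect, 0.35 in culture and -0.48 after transplant, differed by -0.83 (SE 0.30, adjusted p = 0.451, edgeR). It passed only without replicate 2 of shRNA1 after transplant (-1.07).

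Among progenitors, the platelet genes were highest in CMPs. Their summed level was 653 CPM in CMPs, 77.3 in GMPs and 72.3 in MEPs. Itga2b made up 53.5% of the sum in CMPs, and Gp5 made up 54.3% in MEPs. All 10 genes were lower in both MEP libraries than in both CMP libraries, where 44.1% of the genes tested were. By edgeR, 8 of the 9 tested fell in MEPs (0 rose), where 17.5% of 18234 genes rose and 29.2% fell. Of those 8, Ppbp and Clec1b passed the filter on low counts through the CMP libraries and had 0 reads in MEPs, so a fall was the outcome open to them. The median log2 change of the members was -7.05, or -4.36 with genes at 0 reads set to their bound, and that of all genes was -0.07. Of the erythroid genes 10 of 10 rose in the same comparison, with Car2 at 277 CPM in CMPs and 6133 in MEPs.

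The integrin chains nearly vanished from MEPs. Itga2b was at 338 and 360 CPM in CMPs, 35.4 and 62.0 in GMPs and 2.54 and 2.73 in MEPs, a log2 change from CMPs to MEPs of -7.05 (SE 0.43, adjusted p = 4.95e-04, edgeR). Itgb3 was at 58.2 and 57.3 CPM in CMPs, 15.1 and 20.7 in GMPs and 0.282 and 0.228 in MEPs (-7.80, SE 0.23, adjusted p = 5.08e-12, edgeR). Both chains were also lower in MEPs than in GMPs, by -4.20 and -6.11 on the log2 scale. Pf4 was at 124 and 116 CPM in CMPs, 1.70 and 6.86 in GMPs and 0.846 and 0.683 in MEPs (-7.29, SE 0.74, adjusted p = 0.00276, edgeR). Ppbp and Clec1b had 0 reads in both MEP libraries, at least 36.8-fold and at least 20.6-fold lower than in CMPs, counting 3 reads over the group as the floor (0.0425 CPM). Gp1bb also had 0 reads in MEPs, at least 6.32-fold lower than in CMPs, and was not tested.

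Gp5, Gp1ba, Gp9 and Vwf were detected in both MEP libraries. Gp5 was at 49.7 and 61.2 CPM in CMPs, 0.121 and 2.15 in GMPs and 32.0 and 46.5 in MEPs. The change from CMPs to MEPs, -0.50 with an SE of 0.54 (adjusted p = 0.485, edgeR), did not pass, and Gp5 rose in MEPs relative to GMPs by 5.15 (adjusted p = 0.0107, edgeR). Gp1ba was at 14.2 and 13.6 CPM in CMPs, 0.121 and 0.715 in GMPs and 6.77 and 9.27 in MEPs. Gp9 was at 12.3 and 10.8 CPM in CMPs, 1.09 and 1.95 in GMPs and 5.16 and 5.09 in MEPs.

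Vwf was at 50.6 and 34.5 CPM in CMPs, 1.46 and 4.42 in GMPs and 16.6 and 15.9 in MEPs. From CMPs to MEPs, Gp1ba (-0.80, SE 0.29, adjusted p = 0.0344), Gp9 (-1.17, SE 0.22, adjusted p = 3.34e-04) and Vwf (-1.39, SE 0.43, adjusted p = 0.0444) fell in edgeR's test. The Vwf call was lost without any CMP or MEP library (-1.66 to -1.11) or with no filter (-1.45). The Gp1ba call was lost without either CMP library or without MEP replicate 1 (-0.85 to -0.60). DESeq2 called 6 members and did not call Vwf (adjusted p = 0.0511), Gp1ba (adjusted p = 0.429) or Clec1b (adjusted p = 0.0636). Against GMPs, 4 members rose in MEPs (Vwf, Gp5, Gp9 and Gp1ba) and 3 fell (Itga2b, Itgb3 and Clec1b), where 16.6% of all genes rose and 27.2% fell. Clec1b passed the filter through the CMP libraries, with 16 and 0 reads in GMPs and 0 in MEPs, so a fall was the outcome open to it. In that comparison the Vwf call was lost without either MEP library (2.44 and 2.51) or with no filter (2.47). Gp5 was lost without MEP replicate 2 (4.85), and Clec1b without any of 5 libraries. Pf4 was gained without either GMP library (-3.17 and -1.15), and Ppbp, at 0 reads in MEPs, without GMP replicate 1 or with no filter. Without MEP replicate 2, 4 calls were left. DESeq2 called Pf4 (adjusted p = 0.00444) and not Clec1b (adjusted p = 0.194).

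From CMPs to GMPs 8 of 9 tested members fell and 0 rose, where 6.24% of genes rose and 10.5% fell. The largest log2 changes were -5.65 for Gp5, -5.07 for Gp1ba and -4.83 for Pf4. Clec1b, at 0.713 and 1.03 CPM in CMPs and 0.485 and 0 in GMPs, did not pass (adjusted p = 0.188, edgeR), but was called with no filter (-1.85) and without GMP replicate 1, which left 0 reads in GMPs. Ppbp, among the 8, had 0 and 8 reads in GMPs and passed the filter through the CMP libraries. Calls were lost for Itga2b without CMP replicate 2 (-2.81), for Pf4 without either CMP library (-4.78 and -4.88) and for Gp5 without any CMP or MEP library (-5.79 to -5.49), and 5 calls were left without CMP replicate 2. DESeq2 did not call Ppbp (adjusted p = 0.415). In the other platelet lists, compared between MEPs and CMPs, where 29.2% of all genes fell and 17.5% rose, 15 of 17 tested receptors, 14 of 15 granule genes and 12 of 15 signalling genes fell, while of 12 transcription factors 4 rose and 7 fell. Gata1, an erythroid and megakaryocyte factor, was at 101 CPM in CMPs and 416 in MEPs.

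**Figure D4:**
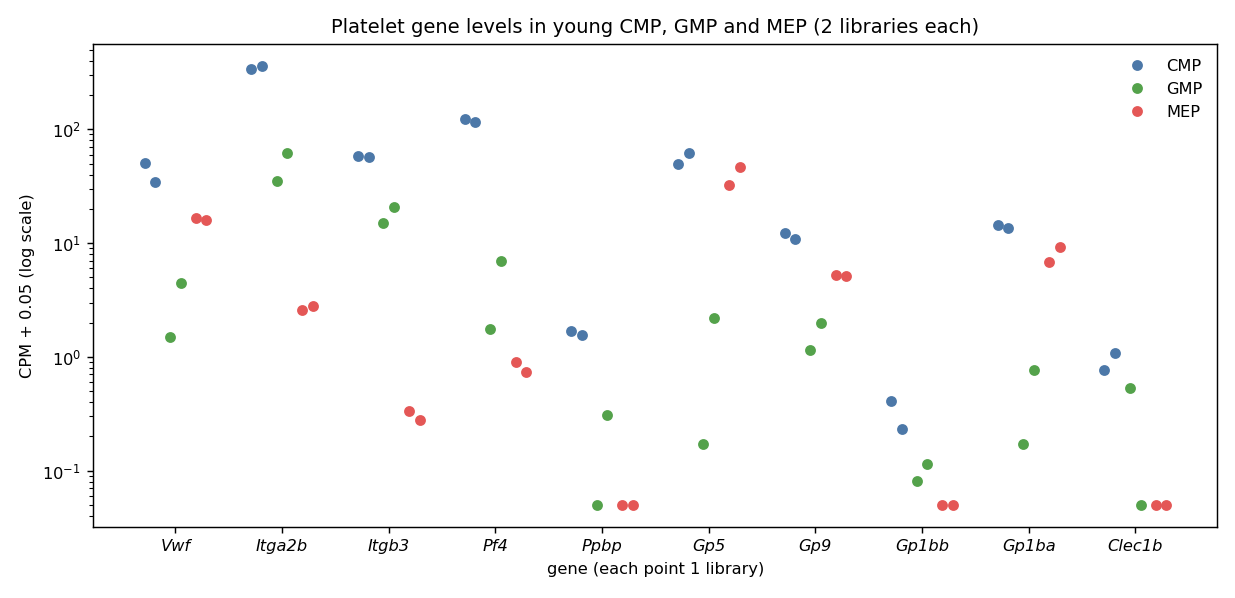
CPM with 0.05 added, on a log axis, of each platelet gene in the 2 libraries each of CMPs, GMPs and MEPs. Itga2b, Itgb3, Pf4, Gp1bb and, by mean, Ppbp and Clec1b are lowest in MEPs, and Vwf, Gp5, Gp9 and Gp1ba are lowest in GMPs.

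Across the 11 groups, the genes peaked in different places. Vwf was highest in OHSCs (763 ± 106 CPM, SD, n = 8), ahead of the culture groups (389 to 485 CPM), and its level in YHSCs (331 CPM) overlapped that of transplanted control HSCs (315 CPM), which came from old donors. Itgb3 was also highest in OHSCs at 424 CPM, and its transplanted control level of 137 CPM was near that of cultured controls (150 CPM), with overlapping libraries. Itga2b and Pf4 were highest in culture, Itga2b with shRNA1 (572 CPM) and Pf4 with shRNA2 (340 CPM). Pf4 was at 289 CPM in cultured controls, 120 in CMPs, 41.0 in transplanted controls and 26.9 in OHSCs. Gp5 was highest in CMPs (55.5 CPM) and next in MEPs (39.2 CPM). Clec1b was highest in OHSCs (11.9 CPM), then YHSCs (5.27 CPM), and no more than 2.06 CPM on average in any other group. These levels come from 4 experiments that were normalized separately and differ in gate, culture and virus. Per the study's methods, the age and transplant experiments also differ in RNA extraction, library kit and sequencer. No test was therefore made across the experiments.

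**Figure D5:**
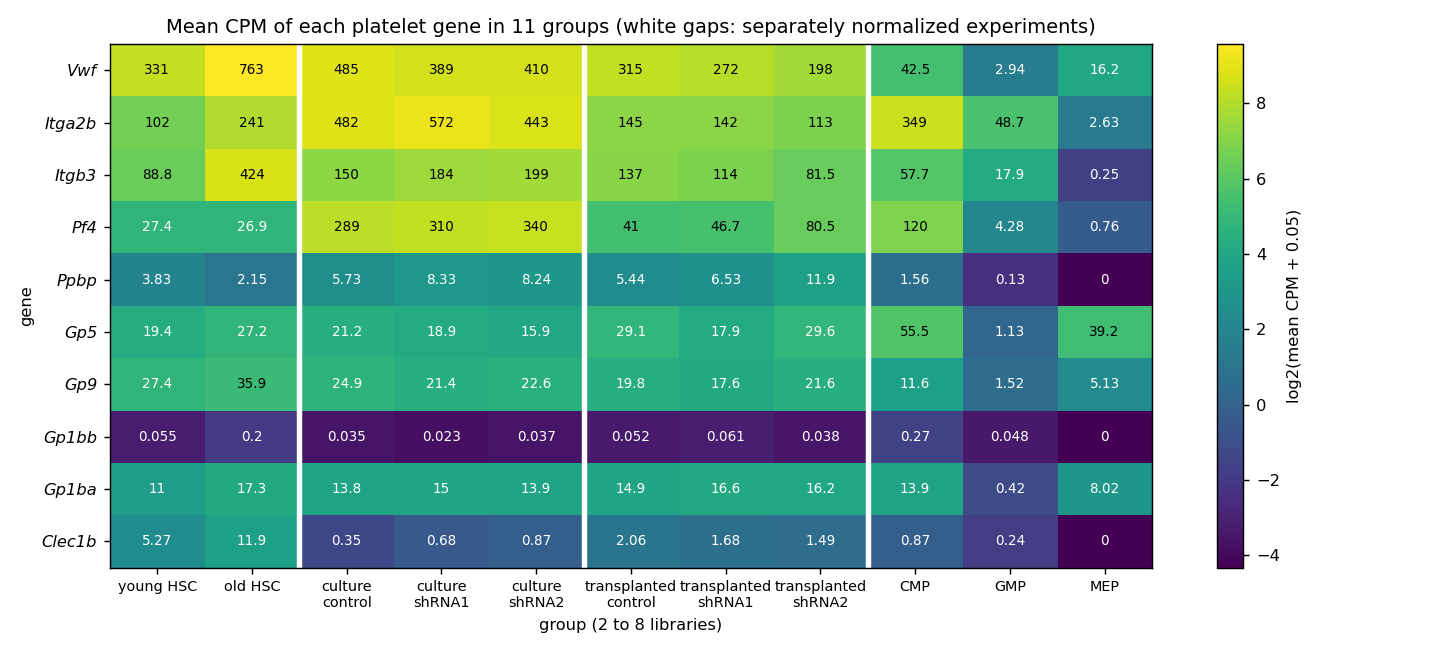
Mean CPM of each platelet gene in the 11 RNA-seq groups, coloured by log2(CPM + 0.05), with a row for each gene. Vwf, Itgb3, Gp9, Gp1ba and Clec1b are highest in OHSCs, Itga2b and Pf4 in cultured OHSCs, Gp5 in CMPs, and GMPs or MEPs are lowest for every gene.

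Likeness of pattern was measured as Pearson's r of mean log2 CPM over the 11 groups, among 15895 genes tested in every experiment, as a description. Vwf was most like Smo (r = 0.986), Egfl7 (0.983) and Arhgap35 (0.983). Itga2b was most like Plek (0.975), Runx1 (0.969) and Spag4 (0.961), and Itgb3 most like Gbx2 (0.992), Galnt6os (0.991) and Nav1 (0.991). Gp9 had another member among its 3 nearest, Vwf (0.979), after Dlg3 (0.987) and Nol4l (0.980). Gp1ba was most like Tgfbr3 (0.956), the thrombin receptor gene F2r (0.952) and Vamp5 (0.950), and Gp5 most like Slc14a1 (0.938), Gnb4 (0.936) and Sbk1 (0.934). Pf4 was most like H1fx (0.969), Metrnl (0.952) and Cep170 (0.951), Ppbp like Nt5c3b (0.964), 2810402E24Rik (0.963) and AC154542.1 (0.961), and Clec1b like Gm26602 (0.976), AC109619.1 (0.974) and Zfhx2os (0.969). Neither integrin chain was among the 3 genes nearest to the other. The groups share experiments, donors' age and library preparation, so these values do not rest on independent points.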

How the data were processed

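RNA-seq values were raw gene counts that the authors deposited per library. Per the labels and the study's methods, reads were trimmed with cutadapt and trim galore, aligned to mm10 with STAR and counted with featureCounts on GENCODE M22. The strand setting of the counting is not stated in these sources, so overlapping genes on either strand may share reads. ATAC-seq values were counts per accessible region that the authors deposited, after BWA alignment, removal of duplicates, multimapped reads and blacklisted regions, and MACS peak calling. Histone values were the authors' signal per peak, scaled by the authors to a common read number and binned along the genome, and how the bins gave a peak's value is not stated in these sources. Columns of the authors' own fold changes were not used.

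Counts were tested with edgeR 4.0.16 (robust quasi-likelihood, TMM, filterByExpr) in R 4.3.3, within each of the 4 experiments, and p-values were adjusted by Benjamini-Hochberg over all features tested. The interaction used culture and transplant libraries together. The 92 spike-in rows, present in the age experiment only where they took 6.05% to 6.93% of all counts, were left out. ATAC-seq libraries held 15427933 to 26260337 counts in regions. H3K27ac was compared by the ratio rule, and limma 3.58.1 on log2(signal + 0.5) and DESeq2 1.42.0 on counts were alternatives. Gene positions came from GENCODE M21 and sequences from RefSeq GRCm38.p6. Figures were drawn in Python 3.11.15 with matplotlib 3.10.9. The tests were tried on simulated data.

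The text names all 10 members, Btaf1 and the 3 genes most like each member. From each platelet list it names the 3 called genes with the largest change in each direction whose groups did not overlap. The 2 most abundant genes of each list of other cell types were also chosen for naming, and only some of these are named. Of the list of transcription factors with age, 1 result is not reported here. Members and lists were chosen with earlier results of these data known. Replicate numbers did not pair the libraries: deviations of same-numbered libraries correlated at -0.19 to 0.08 in the age experiment, -0.05 to 0.07 in culture, -0.17 to 0.20 after transplant and 0.05 to 0.33 in progenitors. Alternatives covered other normalization, filters, fold and p thresholds, DESeq2, each shRNA alone, the replicate block and leaving out each library. The comparison of shRNA2 with shRNA1 was added after the data were seen. There are 8 columns of per-sample values (4 old ATAC-seq tables and 4 old histone columns) that were not used here, because no sample's labels matched them.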

Additional observations from a re-analysis of the deposited data

Results flagged for a closer look

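In groups of 4 to 10 libraries, the distance of the highest or lowest value from its neighbour was compared with the range of the group. Of 92 groups of values tested, 4 held a library that stood apart, and chance alone gives about 1 in 20. Gp1bb was at 0.530 CPM in old replicate 8, where the next highest OHSC library was at 0.268 CPM, which is a matter of 12 reads against 6. Young ATAC-seq replicate 2 accounted for the other 3. It was at 2.61 CPM in the Vwf region 31 kb inside the gene (next lowest 3.95 CPM), at 17.0 CPM in the Gp1ba start region (next lowest 22.2 CPM) and at 47.1 CPM in the Pf4 start region (next highest 44.2 CPM). The effect of the 2 shRNAs on Itga2b in culture differed, with shRNA2 lower than shRNA1 by a log2 difference of -0.37 (adjusted p = 1.18e-08, edgeR). Both shRNA2 libraries were below both control libraries and both shRNA1 libraries were above them. The cause of these values was not tested.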

How the results depend on the processing

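Of the counts of called members recomputed under other settings, 115 stayed within 1.5 times the reported count and 12 did not, and of the values for single genes, regions and peaks 776 kept their direction and side of the threshold, 48 were no longer called, 8 became called and 29 turned in direction. In culture, 3 members were called with no fold threshold and 1 with an unadjusted p. For H3K27ac, 1 peak was higher with a ratio above 2, 3 with 0.5 added to every signal, 2 with limma and 3 with limma and a replicate block. For accessibility, 2 regions were called at a fold above 2, and 16 (8 higher, 8 lower) when regions within 50 kb were taken. With any library left out there were 5 to 6 calls with age, 0 in culture, 0 after transplant, 6 to 9 for MEPs against CMPs, 4 to 8 for MEPs against GMPs, 5 to 9 for GMPs against CMPs, 0 to 1 for the interaction, 5 to 7 acetylated peaks and 3 to 7 accessible regions. With a replicate block, 5 members were called with age (the Ppbp change, -0.72, was lost), 0 in culture, 0 after transplant, 8 for MEPs against CMPs, 6 for MEPs against GMPs, 8 for GMPs against CMPs and 0 for the interaction. No paired analysis was possible for ATAC-seq because replicates 1 to 4 are young and 5 to 8 are old.

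Direction turned for members that had not been called. These were Pf4 with age under the replicate block (0.0043), Itga2b (-0.12) and Gp1ba (-0.000632) in culture with shRNA2 alone, Gp5 (0.024) and Gp9 (0.12) after transplant with shRNA2 alone, and Gp5 in the interaction with DESeq2 (0.0056) and with its size factors (0.0058). Leaving out libraries, the log2 change ran from -0.22 to 0.12 for Pf4 with age and from -0.053 to 0.19 for Gp1ba in culture. After transplant it ran from -0.80 to 0.077 for Vwf, -0.22 to 0.22 for Gp9 and -0.78 to 0.15 for Clec1b. In the interaction it ran from -0.52 to 0.36 for Vwf, -0.16 to 0.12 for Gp5, -0.039 to 0.40 for Gp9 and -0.0503 to 0.19 for Gp1ba. The cause was not tested. With 2 libraries per group in the shRNA, progenitor and histone experiments, the number of libraries limits the precision, and Gp1bb and, outside HSCs, Clec1b and Ppbp rest on few reads.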
